A study of Mus musculus with 6 samples.

Results

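Serping1 and 6 other genes of the complement system (Cd55, Cd59a, C3, C4b, C2 and Cfd) were described across 3 sorted cell subsets of the mouse dorsal root ganglion, where the cell bodies of somatosensory neurons sit. They were chosen by gene symbol among the 23029 genes of the deposited expression table, and 7 of 7 were found. All animals had the genotype GINIP+/mcherry, heterozygous for an mcherry allele of GINIP, so the 3 subsets share that allele. DP cells were IB4+GINIP+, where IB4 is a lectin that binds many non-peptidergic nociceptors, and the labels call them Mrgprd+ neurons. C-LTMR cells were IB4-GINIP+; the name stands for low-threshold mechanoreceptors with C fibres, which respond to gentle touch. DN cells were IB4-GINIP- and hold whatever lay outside both gates, so they are a mixture and not 1 cell type. Each subset had 2 libraries of total RNA (n = 2 for every mean ± SD), and the labels give neither the age of the mice nor the source of the duplicates. The spread behind each p-value is thus one between duplicate libraries, pooled over the 3 subsets and drawn toward that of other genes, and may be technical. The 7 genes were picked with their values in these libraries known, so their levels and differences are given as descriptions without p-values.

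Complement is a cascade of plasma proteins that tags cells and debris for removal and can punch pores in membranes. The classical, lectin and alternative pathways meet at the cleavage of C3. Host cells hold the cascade back with soluble inhibitors and with inhibitors anchored in their membrane. In the nervous system complement is known for the clearance of synapses and myelin debris and for its part in inflammatory pain.

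Levels are read counts divided by gene length and library depth (RPKM), which allow genes to be compared with each other. The steps between low RPKM values gave estimated depths of 42.1 and 38.3 M reads in DP, 34.2 and 32.3 M in C-LTMR and 39.0 and 32.3 M in DN. Across genes, the replicate correlation r was 0.986 (DN) to 0.994 (DP). A difference was called at a limma Benjamini-Hochberg (BH) adjusted p under 0.05 with an absolute difference of at least 1 in log2(RPKM + 0.1), a scale that understates the change of low genes. Of 13478 genes that reached 0.5 RPKM in at least 2 libraries, 15.2% were called between DP and C-LTMR, 32.4% between DP and DN and 30.9% between C-LTMR and DN. Of the calls against DN, those with the higher level in DP made up 24.5% and those with the higher level in C-LTMR 28.0%, but 46.9% and 48.6% after quantile normalization and 9.84% and 9.98% after rescaling to sensory neuron genes. Those scalings moved the median log2 difference of all genes from -0.17 to 0.15 and -0.80 (DP minus DN) and from -0.06 to 0.16 and -0.79 (C-LTMR minus DN).

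Marker genes followed the sort labels, and DN held markers of several other cell types. The 6 Mrgprd nociceptor markers summed to 1016 and 1034 RPKM in DP, 132 and 121 in C-LTMR and 23.5 and 26.5 in DN, and the 5 C-LTMR markers found to 76.7 and 88.1, 1304 and 1306, and 35.5 and 17.2. The 12 sensory neuron markers summed to 6572 to 9011 in DN against 9864 to 10752 in the other subsets. In DN the 10 satellite glia markers summed to 7470 and 17353, the 10 endothelial markers to 391 and 646 and the 10 fibroblast markers to 633 and 879. The same sums reached at most 2010, 47.6 and 48.8 in DP and C-LTMR. The myelinating Schwann cell sum was 597 and 573 in DP, 1365 and 1325 in C-LTMR and 1680 and 1620 in DN. Most of it in C-LTMR was Pmp22 (1203 and 1166). Of 10 tested markers, 9 were called lower in C-LTMR than in DN and 0 higher, against 22.3% and 8.67% of all tested genes. The pericyte sum was 81.0 and 85.2 in C-LTMR against 53.8 and 89.8 in DN. In C-LTMR it was mostly Rgs5 (79.5 and 82.3). Of 8 tested pericyte markers, 7 were called lower in C-LTMR than in DN and 1 higher, against the same shares of all tested genes. Cldn19, Prx and Mag of the Schwann cell list and Myh11, Des and Kcnj8 of the pericyte list reached 0.5 RPKM only in DN. They could be tested only by being high there, so these 2 counts support no direction. Fewer cells of a type and less RNA per cell cannot be told apart in such bulk samples.

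**Figure D1:**
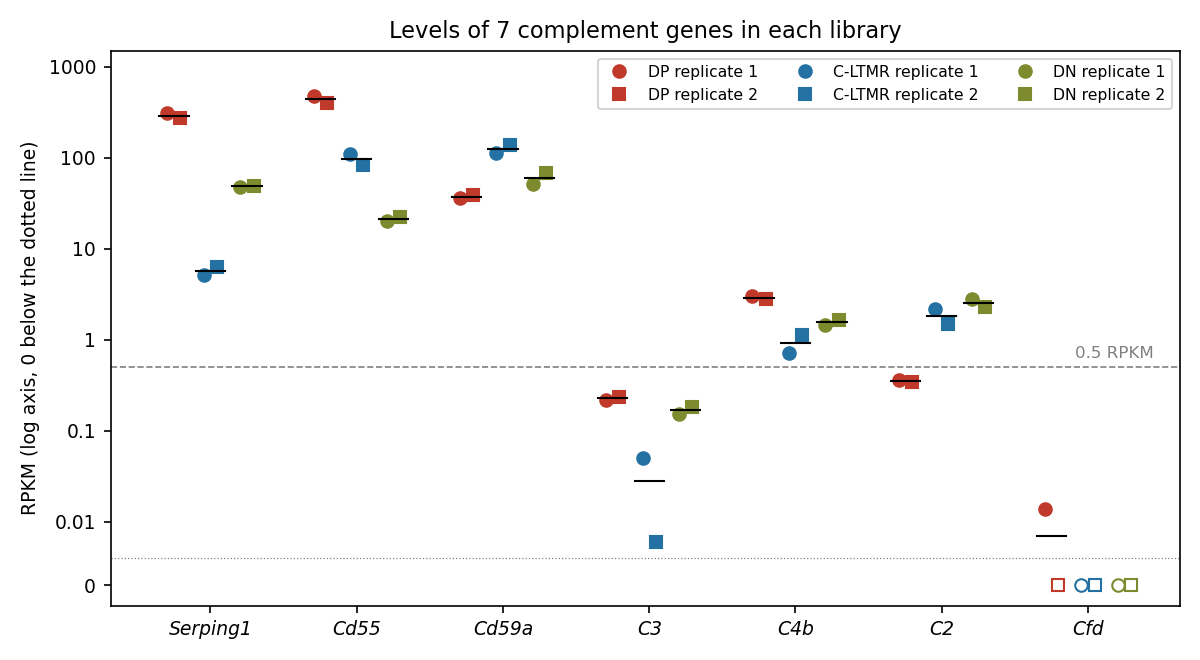
RPKM (log axis) of the 7 genes in each of the 6 libraries; circles and squares are replicates 1 and 2, black lines are subset means, the dashed line is 0.5 RPKM, and open symbols are libraries listed at 0. The 3 inhibitors Serping1, Cd55 and Cd59a lie between 5.17 and 481, and the 4 components lie at or below 3.01.

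The inhibitors were far more abundant than the components. Serping1, Cd55 and Cd59a together came to 825 and 716 RPKM in DP, 228.2 and 227.8 in C-LTMR and 119.7 and 140.03 in DN. By contrast, C3, C4b, C2 and Cfd together came to 3.61 and 3.40 RPKM in DP, 2.95 and 2.65 in C-LTMR and 4.44 and 4.13 in DN. The 3 inhibitors thus exceeded the 4 components 211- to 228-fold in DP, 77.2- to 85.9-fold in C-LTMR and 27.0- to 33.9-fold in DN. Both sums were taken within a library, so a scaling between libraries does not change these ratios. The ratios do depend on which genes are summed. The 9 classical pathway genes of the wider list below came to 5.01 and 5.40 RPKM in DP, 3.24 and 3.18 in C-LTMR and 9.96 and 10.3 in DN.

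Serping1 encodes C1 inhibitor, a secreted serpin that blocks the proteases C1r and C1s of the classical pathway, the lectin pathway proteases and plasma kallikrein, and so limits the release of bradykinin. The gene (Entrez 12258) lies on the minus strand of chromosome 2 from 84765360 to 84775429 in GRCm38. Its RPKM was 308 and 273 in the DP libraries, 5.17 and 6.35 in the C-LTMR libraries and 48.1 and 49.2 in the DN libraries. The 3 subsets did not overlap, in the order DP, DN, C-LTMR. The DP mean was 291 ± 24.6 (SD), the C-LTMR mean 5.76 ± 0.83 and the DN mean 48.7 ± 0.811, so DP was 50.5-fold above C-LTMR and 5.97-fold above DN, and DN was 8.45-fold above C-LTMR. On the log2 scale the differences were 5.64 (DP minus C-LTMR), 2.57 (DP minus DN) and -3.06 (C-LTMR minus DN), each with an SE of 0.12. After rescaling to sensory neuron genes those against DN were 1.93 and -3.80. The deposited TMM-normalized counts, a separate table of 6620 genes, gave 20619 and 18027 in DP, 332 and 408 in C-LTMR and 3128 and 3383 in DN.

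Among the 23029 genes, Serping1 ranked 212 and 261 by RPKM in the DP libraries, 1836 and 1775 in DN and 7239 and 6739 in C-LTMR. It was thus among the abundant transcripts of the DP libraries and an ordinary one in C-LTMR. Its difference between DP and C-LTMR was the 17th largest toward DP of 13478 genes. The order DP above DN above C-LTMR, with all 3 differences called, was met by 54 of 13478 genes (0.401%). The nearest listed neighbours with a level above 1 RPKM did not share it. Ypel4, 27.5 kb away, was between 4.71 and 14.2 in the 6 libraries and Ube2l6, 23.4 kb away on the other side, between 10.2 and 21.9, and neither was called in any of the 3 comparisons.

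By the distance between log2(RPKM + 0.1) profiles over the 6 libraries, each centred on its own mean, the 5 genes most like Serping1 among 13477 were Ly6c2, Chi3l3, Hp, Cebpa and Ltf (distances 0.705 to 1.03). In DP they stood between 3.19 and 7.01 RPKM, in DN between 0.559 and 1.94 and in C-LTMR between 0 and 0.0703. Their C-LTMR values lie under the pseudocount of 0.1, so the pseudocount sets part of the likeness. Ltf also stands in the list of neutrophil markers, and the 9 measured genes of that list stood in the same order. They summed to 238 and 266 RPKM in DP, 0.204 and 0.217 in C-LTMR and 33.0 and 66.6 in DN. Of these 9 genes, 4 were at 0 in both C-LTMR libraries and 9 were under 1 RPKM there. The most abundant were S100a9 (102 and 115 in DP, 0 and 0.127 in C-LTMR, 13.4 and 26.3 in DN) and S100a8. The 11 macrophage markers summed to 37.0 and 33.1, 1.47 and 1.67, and 19.7 and 23.5 in the same order. Most of that sum was Lyz2, a lysozyme gene that neutrophils also express, at 34.3 and 29.8 in DP, and 10 of the 11 were under 1 RPKM in both DP libraries. Serping1 alone exceeded the sum of the neutrophil list in each DP library (308 against 238, 273 against 266). In C-LTMR it was at 5.17 and 6.35, where the neutrophil list was at 0.204 and 0.217. Between the DN libraries Serping1 was at 48.1 and 49.2, while the neutrophil sum went from 33.0 to 66.6. The part of blood cell RNA in the level of Serping1 was not tested.

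**Figure D2:**
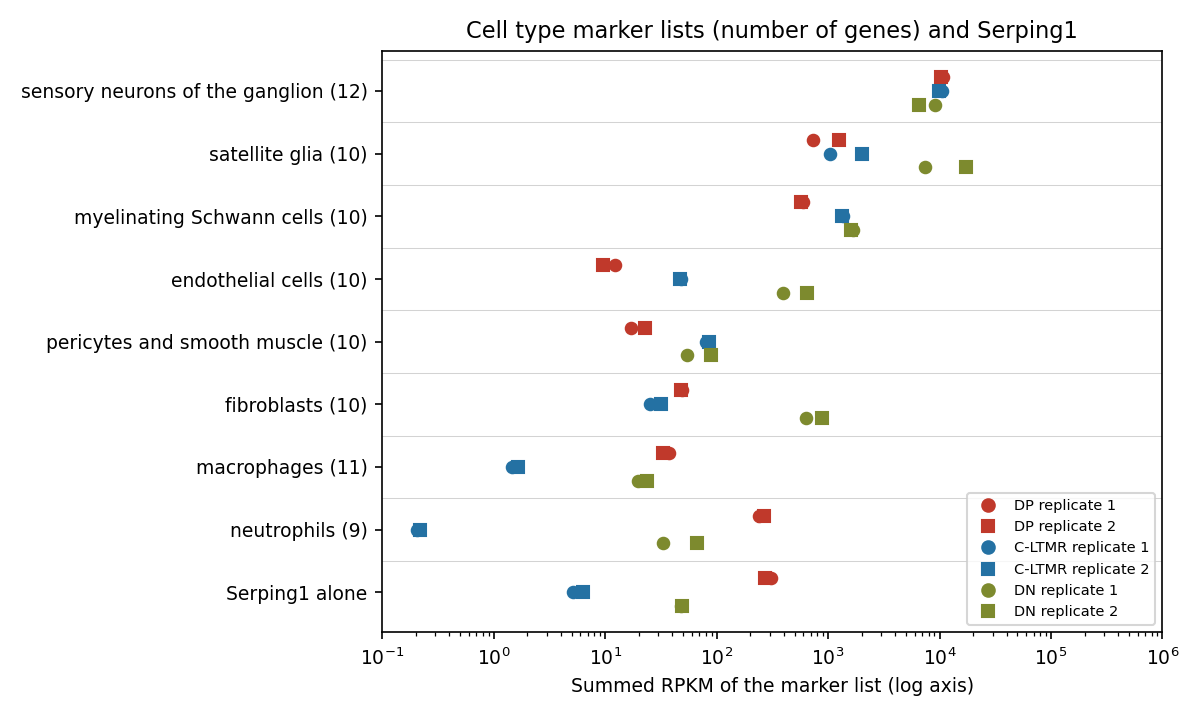
Summed RPKM (log axis) of 8 lists of cell type markers in each library, with the number of genes in brackets, and Serping1 alone in the lowest row; circles and squares are replicates 1 and 2. The neutrophil list and Serping1 are both highest in DP and lowest in C-LTMR, at 0.204 and 0.217 and at 5.17 and 6.35 there.

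Cd55 encodes decay-accelerating factor, an inhibitor on the cell surface that takes apart the convertases that cleave C3 and C5. The gene (Entrez 13136) lies on the minus strand of chromosome 1 from 130439030 to 130462740. Its level was 481 and 404 RPKM in DP, 111 and 82.4 in C-LTMR and 20.3 and 22.4 in DN. The subsets did not overlap, in the order DP, C-LTMR, DN, so both GINIP+ subsets stood above the remaining cells. Means were 443 ± 54, 96.9 ± 20.4 and 21.3 ± 1.53, or 4.57-fold higher in DP than in C-LTMR, 20.7-fold higher in DP than in DN and 4.54-fold higher in C-LTMR than in DN. The log2 differences were 2.20, 4.36 and 2.16 (SE 0.161), and those against DN 3.72 and 1.42 after rescaling to sensory neuron genes. The order DP above C-LTMR above DN, with all 3 differences called, was met by 96 of 13478 genes (0.712%). Cd55 ranked 123 and 150 of 23029 genes in DP, 764 and 1069 in C-LTMR and 3680 and 3373 in DN, and in DP it was the most abundant of the 7 genes. In DN, which held the glial and vascular markers given above, Serping1 was 2.37 and 2.19 times as high as Cd55, against 0.641 and 0.676 times in DP and 0.0465 and 0.077 times in C-LTMR.

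Cd59a encodes an inhibitor anchored to the outer membrane by a lipid, which stops assembly of the pore-forming membrane attack complex. The gene (Entrez 12509) lies on the plus strand of chromosome 2 from 104095801 to 104115351. It was at 36.0 and 38.6 RPKM in DP, 112 and 139 in C-LTMR and 51.3 and 68.4 in DN. C-LTMR was thus highest and DP lowest, with no overlap between the subsets. The DP mean was 37.3 ± 1.89, the C-LTMR mean 125 ± 19.4 and the DN mean 59.8 ± 12, with log2 differences of -1.74 (DP minus C-LTMR), -0.67 (DP minus DN) and 1.07 (C-LTMR minus DN; SE 0.164). The difference between DP and DN was below the fold criterion. That between C-LTMR and DN met it narrowly and fell under it without either DN replicate 1 (0.86) or C-LTMR replicate 2 (0.91), and after rescaling to sensory neuron genes (0.33), a scaling under which DP minus DN was -1.31.

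The 2 membrane inhibitors therefore differed in opposite directions between DP and C-LTMR. Within a library, Cd55 was 13.4 and 10.5 times as high as Cd59a in DP, 0.997 and 0.593 times in C-LTMR and 0.395 and 0.328 times in DN. This ratio needs no scaling between libraries, and its 3 groups of values did not overlap. The subset with least Cd59a was the one with most Cd55.

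The stretches of DNA before the start sites of these 2 genes are shown because the genes move in opposite directions. Each is the 250 bases before the RefSeq start (GRCm38.p6), 5′ to 3′ along the gene, with matches to the GC box GGGCGG on either strand in capitals.
Cd55, chr1:130462745-130462994, minus strand: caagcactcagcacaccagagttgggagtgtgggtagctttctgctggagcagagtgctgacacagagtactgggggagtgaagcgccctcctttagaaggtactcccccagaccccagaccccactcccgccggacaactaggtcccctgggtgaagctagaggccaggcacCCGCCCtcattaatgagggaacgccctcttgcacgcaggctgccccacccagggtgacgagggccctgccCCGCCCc
Cd59a, chr2:104095551-104095800, plus strand: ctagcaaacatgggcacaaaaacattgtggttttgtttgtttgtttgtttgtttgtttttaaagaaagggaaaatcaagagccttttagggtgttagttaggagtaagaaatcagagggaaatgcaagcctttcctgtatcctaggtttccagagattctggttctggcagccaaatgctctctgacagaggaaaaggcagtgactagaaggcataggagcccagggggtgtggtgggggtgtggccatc
The Cd55 stretch holds 2 GC box matches, 8 CG dinucleotides and 64.0% G or C. The Cd59a stretch holds 0, 0 and 44.8%. Over 32851 RefSeq promoters of the same length the median was 6 CG dinucleotides and 52.4% G or C, and 32.7% held the GC box. Searched on both strands, the TATA box TATAAA was in neither stretch (12.4% of all promoters held it), nor was the CCAAT box, spelled as its name (33.8%), nor the E box CACGTG (6.02%). Of the 7 genes, 4 had an entry in that table (Cd55, Cd59a, C3 and Cfd). These matches describe the letters only.

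Cd55 and Cd59a each have a near copy beside them, so the coding sequences are set side by side to show how far reads could be told apart. Capitals mark the bases that differ, and positions count from 1 at the A of the start codon in GENCODE M21.
Cd59a, 99 to 188: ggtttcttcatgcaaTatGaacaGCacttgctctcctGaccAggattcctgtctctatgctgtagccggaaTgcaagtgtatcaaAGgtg
Cd59b, 96 to 185: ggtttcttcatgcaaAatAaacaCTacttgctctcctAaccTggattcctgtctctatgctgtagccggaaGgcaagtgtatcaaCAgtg
Cd55, 43 to 132: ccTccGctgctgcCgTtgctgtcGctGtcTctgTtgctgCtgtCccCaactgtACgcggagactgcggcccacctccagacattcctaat
Cd55b, 37 to 126: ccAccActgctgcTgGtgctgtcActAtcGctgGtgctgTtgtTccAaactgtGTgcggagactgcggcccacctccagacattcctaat
Of these 90 bases, 9 differ between Cd59a and Cd59b and 13 between Cd55 and Cd55b. Over the aligned coding sequences identity was 85.0% (354 aligned bases) and 92.2% (1144 aligned bases). Of all 50-base windows of the longest coding transcript, 3.98% of those of Cd59a occurred unchanged in a Cd59b transcript and 13.3% of those of Cd55 in a Cd55b transcript. Cd59b (Entrez 333883), 10.8 kb from Cd59a, was at 0.443 and 0.230 RPKM in DP, 1.14 and 1.47 in C-LTMR and 0.672 and 0.696 in DN. It followed the order of Cd59a at a level 76.4 to 168 times lower, so how much of its signal came from reads of Cd59a is uncertain. It was called lower in DP than in C-LTMR (log2 difference -1.72, SE 0.28, limma BH-adjusted p = 0.00423), but not with a pseudocount of 1 (-0.79). Cd55b, listed as Daf2 (Entrez 13137) and 16.0 kb from Cd55, was at 0.0539 RPKM or less in each library and at 0 in both DN libraries.

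C4b encodes complement C4, which is cleaved in the classical and lectin pathways and joins a fragment of C2 to form their C3 convertase. The gene (Entrez 12268) lies on the minus strand of chromosome 17 from 34728381 to 34743897. C4b stood at 3.01 and 2.82 RPKM in DP, 0.725 and 1.14 in C-LTMR and 1.45 and 1.66 in DN, with no overlap and DP highest. Means were 2.92 ± 0.135, 0.931 ± 0.292 and 1.56 ± 0.145. The log2 differences were 1.58 (DP minus C-LTMR), 0.87 (DP minus DN) and -0.71 (C-LTMR minus DN; SE 0.222), and the last was 0.05 after quantile normalization, -1.40 after rescaling to sensory neuron genes and -1.002 without the second C-LTMR library. DP minus DN passed the fold criterion after median-ratio rescaling (1.06) and after quantile normalization (1.65), and was 0.25 after rescaling to sensory neuron genes and 0.62 with a pseudocount of 1. C4b shares 35.2% of the 50-base windows of its transcript unchanged with its near copy C4a (Entrez 625018), so the split of reads between them is uncertain. C4a was at 0.0231 to 0.0696 RPKM over the 6 libraries.

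C2 encodes the protease that supplies the active fragment of the same convertase. The gene (Entrez 12263) lies on the minus strand of chromosome 17 from 34862602 to 34882100. C2 stood at 0.365 and 0.341 RPKM in DP, 2.18 and 1.51 in C-LTMR and 2.83 and 2.29 in DN. DP was lowest without overlap, while the lower DN library (2.29) lay close to the higher C-LTMR library (2.18). Means were 0.353 ± 0.0165, 1.84 ± 0.475 and 2.56 ± 0.38, so C-LTMR was 5.22-fold and DN 7.26-fold above DP. The log2 differences were -2.08 (DP minus C-LTMR), -2.55 (DP minus DN) and -0.47 (C-LTMR minus DN; SE 0.222), and the last was 0.09 after quantile normalization and -1.18 after rescaling to sensory neuron genes. DP minus DN ran from -1.39 with a pseudocount of 1 to -3.13 after rescaling to sensory neuron genes and was -1.74 after quantile normalization, and DP minus C-LTMR was -1.06 with a pseudocount of 1. C4b and C2, the partners in 1 convertase, thus stood in opposite order in DP and C-LTMR. In GENCODE M21, 42.8% of the exon bases of C2 are also exon of Gm20547, a gene on the same strand that spans C2 and its neighbour Cfb, and 4.16% are exon of Zbtb12 on the other strand. How the authors counted such reads, and whether they used strand, was not stated in any source used here.

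C3, the central component that all 3 pathways cleave, was under 0.5 RPKM in each of the 6 libraries and near the detection limit in C-LTMR. The gene (Entrez 12266) lies on the minus strand of chromosome 17 from 57203973 to 57228136. C3 stood at 0.22 and 0.233 RPKM in DP, 0.0507 and 0.00603 in C-LTMR and 0.154 and 0.182 in DN. At the estimated depths and the 5136 bases of its longest coding transcript these values equal about 47.6 and 45.9 reads in DP, 8.9 and 1.0 in C-LTMR and 30.8 and 30.2 in DN. C-LTMR replicate 2 lay under 3 reads (0.0181 RPKM), so no fold is given. C3 was under the filter of 0.5 RPKM and was not tested.

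Cfd encodes factor D, the protease that starts the alternative pathway by cutting factor B, and is a product of fat cells. The gene (Entrez 11537) lies on the plus strand of chromosome 10 from 79890853 to 79892656. It was listed at 0 in 5 of 6 libraries and at 0.0139 RPKM in DP replicate 1. At the 922 bases of its longest coding transcript, 3 reads would give 0.0773 to 0.101 RPKM in the 6 libraries, so Cfd was not detectable at this depth in any subset. Such floors hold for counting error alone: the RNA had been amplified, and the labels describe no molecular identifiers.

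**Figure D3:**
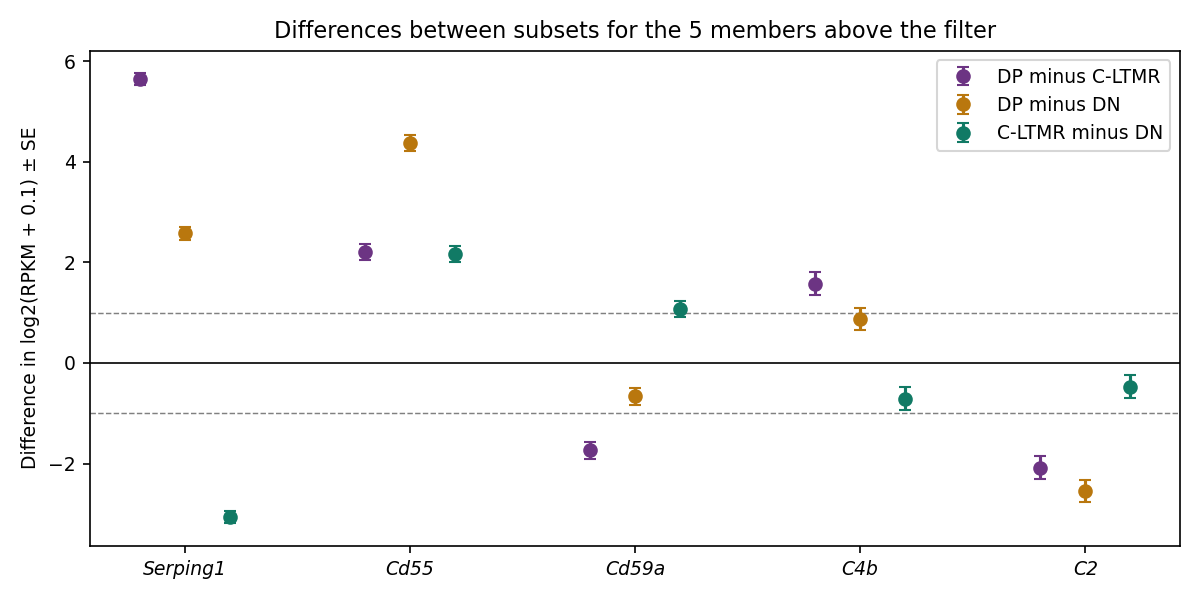
Differences in log2(RPKM + 0.1) between subsets for the 5 members above the filter; points are fitted differences, bars are ± SE and dashed lines mark -1 and 1. Serping1 differs by 5.64 between DP and C-LTMR, and Cd55 and Cd59a lie on opposite sides of 0 in that comparison (2.20 and -1.74).

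Of the 7 members, 5 passed the filter and C3 and Cfd did not. Between DP and C-LTMR, 5 of these 5 were called against 15.2% of all tested genes, and 5 of 5 did not overlap against 71.1% (3 with DP above, 31%, and 2 with DP below, 40.1%). Between DP and DN, 3 of 5 were called (Serping1, Cd55 and C2) against 32.4%, and 5 of 5 did not overlap against 83% (3 above, 32%, and 2 below, 51%). Between C-LTMR and DN, 3 of 5 were called (Serping1, Cd55 and Cd59a) against 30.9%, and 5 of 5 did not overlap against 80.8% (2 with C-LTMR above, 36%, and 3 below, 44.8%). The members were chosen with these values known, so the counts carry no weight as support. DP enters 2 of the comparisons, and so do C-LTMR and DN, so the comparisons share libraries.

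The wider complement system was followed with a list of 57 genes found in the table, grouped into 7 roles, of which 25 passed the filter and 5 were at 0 in each of the 6 libraries. Between DP and C-LTMR, 7 of the 25 were called higher in DP and 5 lower, against 6.6% and 8.62% of all tested genes. Between DP and DN, 5 were higher in DP and 11 lower, against 7.92% and 24.4%. Between C-LTMR and DN, 5 were higher in C-LTMR and 12 lower, against 8.67% and 22.3%. The median log2 difference of the list was 0.14, -0.97 and -0.92 in the same order, against -0.05, -0.17 and -0.06 over all tested genes. The list's split depended on the scaling: after quantile normalization 7 were higher in DP than in DN and 9 lower (median -0.38), and after rescaling to sensory neuron genes 4 and 17 (median -1.61). C-LTMR against DN gave medians of -0.22 and -1.65 in those settings. The filter also shaped it, since 9 of the 25 genes reached 0.5 RPKM in 1 subset only (7 in DN, 1 in DP and 1 in C-LTMR) and could pass only by being high there, so these counts and medians support no direction. With no filter, 52 list genes were tested, and 10 were higher in DP than in DN and 11 lower. Without the members, 20 genes were tested, and 4 were higher and 3 lower, 3 higher and 10 lower, and 3 higher and 11 lower.

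**Figure D4:**
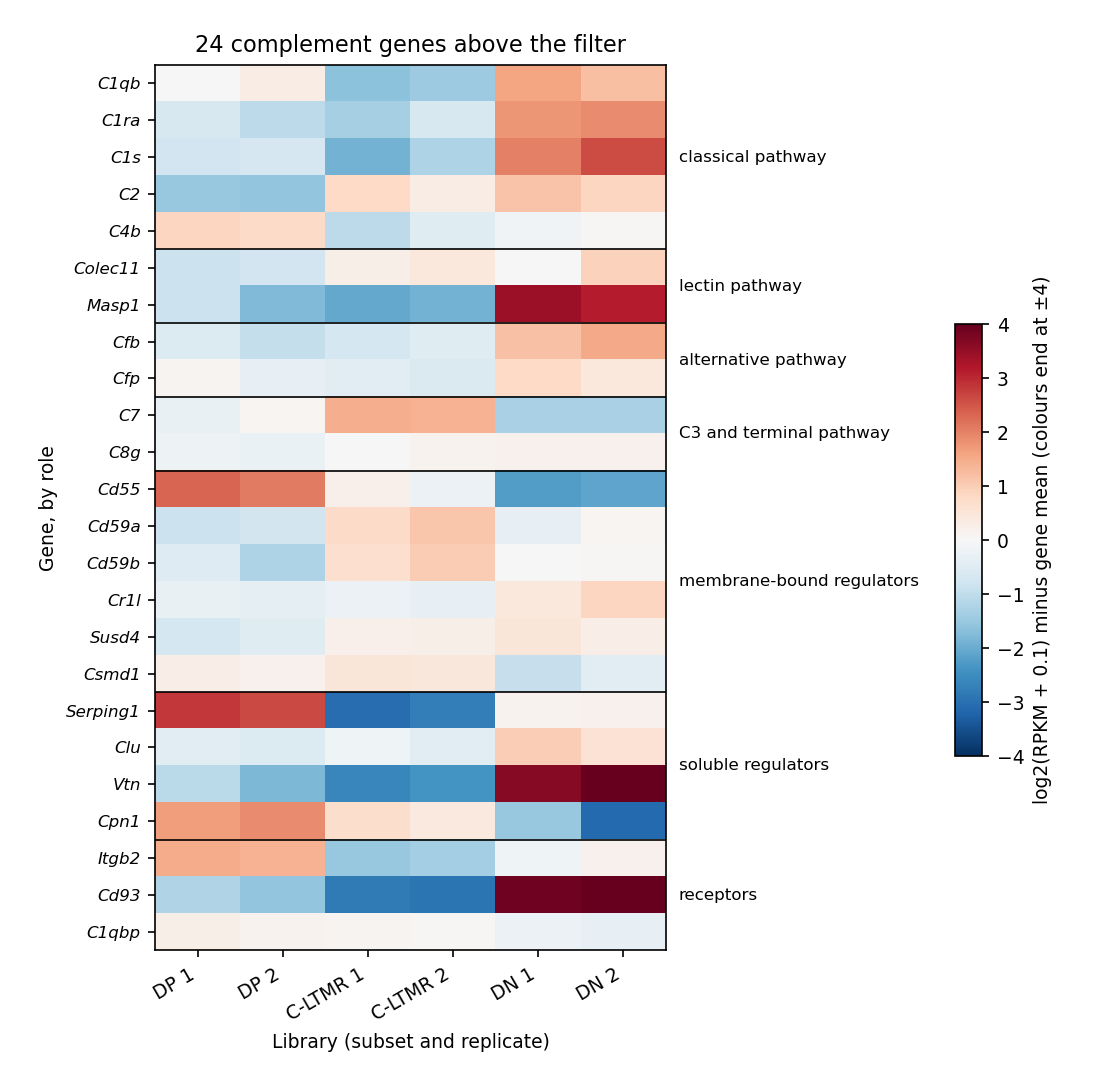
Heat map of log2(RPKM + 0.1) minus each gene's mean for 24 complement genes above the filter, with libraries as columns and genes as rows grouped by role; red is above and blue below the gene's mean. Serping1 and Cd55 are highest in DP and Cd59a in C-LTMR.

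The genes called higher in DN came from several roles. DN was the subset with the highest glial, endothelial and fibroblast marker sums, whose part in these levels was not tested. Of the classical pathway's proteases, C1s (Entrez 50908) was at 2.68 ± 0.795 RPKM in DN, 0.234 ± 0.0155 in DP and 0.0919 ± 0.0607 in C-LTMR. C1ra was at 1.26 ± 0.101, 0.116 ± 0.0434 and 0.0993 ± 0.0657. These are the targets of C1 inhibitor, and both were called higher in DN than in either other subset (limma BH-adjusted p from 7.7e-05 to 0.000364). C1s, C1ra, Masp1, Cfb, Vtn and Cd93 reached the filter only in DN, Itgb2 only in DP and C7 only in C-LTMR, so the filter admitted each through the subset where it was high. The p-values of these genes, here and below, are therefore descriptions and no support for that direction. C1qb, a chain of the recognition molecule C1q, was at 1.88 ± 0.353 in DN, 0.736 ± 0.106 in DP and 0.156 ± 0.0264 in C-LTMR. All 3 differences were called, though with a pseudocount of 1 DP minus C-LTMR (0.58) and DP minus DN (-0.72) fell under the fold criterion. C1qa and C1qc, the genes of its partner chains, did not pass the filter and stood the other way between DP and DN. Their means were 0.561 and 0.261 in DP, against 0.0879 and 0.0365 in DN. C1qb is itself on the macrophage list. Of its 4 tested genes, C1qb among them, 3 were called lower in DP than in DN and 0 higher, against 24.4% and 7.92% of all tested genes. The list's sum was higher in DP through Lyz2. The C1qb difference between DP and DN (log2 -1.24, limma BH-adjusted p = 0.00287) was -0.38 and not called after quantile normalization (limma BH-adjusted p = 0.193).

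In the lectin pathway, the protease gene Masp1 was at 5.23 ± 0.759 RPKM in DN, 0.129 ± 0.0975 in DP and 0.0384 ± 0.00931 in C-LTMR. It was called higher in DN against both (limma BH-adjusted p = 4.74e-05 and 2.75e-05), but passed the filter only through DN, so these p-values support no direction. Colec11, a collectin that recognizes sugars, had means of 0.216 ± 0.0143 (DP), 0.6 ± 0.0698 (C-LTMR) and 0.706 ± 0.348 (DN). It was called lower in DP against both, but the difference from DN (log2 -1.28, limma BH-adjusted p = 0.0119) was 0.02 after quantile normalization and not called without DN replicate 2 (-0.83) or DP replicate 1 (limma BH-adjusted p = 0.057). The difference from C-LTMR (log2 -1.14, limma BH-adjusted p = 0.0356) lost its call in 8 of 14 alternatives. Among them were a pseudocount of 1 (-0.39) and leaving out any 1 of the DP or C-LTMR libraries (-1.24 to -1.04). In the alternative pathway, Cfb, the substrate of factor D, was at 2.0 ± 0.341 in DN, 0.394 ± 0.0991 in DP and 0.449 ± 0.0613 in C-LTMR, a call in both comparisons with DN (limma BH-adjusted p = 0.000326 and 0.000481). In the terminal pathway, C7, a pore subunit, was at 0.57 and 0.542 in C-LTMR, 0.102 and 0.159 in DP and listed at 0 in both DN libraries. C7 was called higher in C-LTMR than in DP (DP minus C-LTMR -1.52, limma BH-adjusted p = 0.00466), but not with a pseudocount of 1 (-0.46).

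Among soluble regulators, 5 passed the filter and they did not move together. Vtn, the gene of vitronectin, which binds the terminal complex, was at 10.9 ± 3.12 RPKM in DN, 0.168 ± 0.0897 in DP and 0.0261 ± 0.0133 in C-LTMR. Clu, the gene of clusterin, which also binds the terminal complex, was abundant throughout, at 179 ± 34.4 in DN, 72.8 ± 4.52 in DP and 84 ± 11.4 in C-LTMR. Both genes were called higher in DN against both other subsets (limma BH-adjusted p from 1.19e-05 to 0.00107). For Clu in C-LTMR against DN (log2 -1.09) the fold criterion was missed without either DN replicate 1 (-0.89) or C-LTMR replicate 2 (-0.95), and after median-ratio rescaling (-0.98). Vtn was also called between DP and C-LTMR (log2 1.05, limma BH-adjusted p = 0.044). That call was lost when DP replicate 1 (limma BH-adjusted p = 0.231), C-LTMR replicate 1 (0.162) or C-LTMR replicate 2 (0.104) was left out, and also without the filter (0.0754), with a pseudocount of 1 (0.503), after quantile normalization (0.109) and after rescaling to sensory neuron genes (0.117). Cpn1, the catalytic subunit of carboxypeptidase N, which inactivates the anaphylatoxins and bradykinin, went the other way. It was at 12.5 and 14.3 in DP, 6.29 and 4.98 in C-LTMR and 1.26 and 0.351 in DN. It was called higher than DN in DP (log2 difference 4.10, SE 0.464, limma BH-adjusted p = 0.000345) and in C-LTMR (2.86, limma BH-adjusted p = 0.00186), and not between DP and C-LTMR (1.24, limma BH-adjusted p = 0.0885).

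Of the membrane-bound regulators other than Cd55 and the Cd59 pair, Csmd1, which encodes a large membrane protein with complement control domains, was called once. Its means were 1.43 ± 0.0234 RPKM (C-LTMR), 1.18 ± 0.0615 (DP) and 0.599 ± 0.171 (DN). C-LTMR minus DN was 1.15 (limma BH-adjusted p = 0.00337), a call lost in 3 of 14 alternatives. Among them were rescaling to sensory neuron genes (0.49) and leaving out DN replicate 1 (0.90), each under the fold criterion. Cr1l, the rodent regulator Crry, had means of 10.6 ± 0.474 (DP), 11.1 ± 0.56 (C-LTMR) and 21.3 ± 4.45 (DN), and Susd4 of 19.8 ± 1.88, 34.8 ± 0.694 and 38.8 ± 3.88. Neither reached the fold criterion in the RPKM values as deposited. Among receptors, Cd93, a C1q receptor candidate known from endothelium, was at 15.6 ± 5.57 in DN, 0.208 ± 0.0551 in DP and 0.00894 ± 0.00605 in C-LTMR. Itgb2, the beta chain of the leukocyte receptors for C3 fragments, was at 0.689 and 0.638 in DP, 0 and 0.0108 in C-LTMR and 0.152 and 0.217 in DN. All 3 differences were called for both genes, though those of Itgb2 fell under the fold criterion with a pseudocount of 1 (0.73, 0.49 and -0.24), DP minus DN after rescaling to sensory neuron genes (0.96) and C-LTMR minus DN after quantile normalization (-0.34), and Cd93 was not called between DP and C-LTMR without DP replicate 1 (limma BH-adjusted p = 0.0603) or with a pseudocount of 1 (0.26, limma BH-adjusted p = 0.428). That Cd93 difference ran from 0.26 to 4.10 over the alternatives, and its C-LTMR values lie under the pseudocount of 0.1. Cd93 passed the filter only through DN and Itgb2 only through DP, so these calls support no direction. The endothelial list was likewise highest in DN. Its sum was lower in DP than in C-LTMR (9.62 and 12.2 against 47.4 and 47.6) through Egfl7 (7.47 and 7.05 in DP, 46.9 and 47.0 in C-LTMR). Of the 10 markers, 4 were called higher in DP than in C-LTMR and 1 lower, against 6.6% and 8.62% of all tested genes. Pecam1, Emcn, Tek, Kdr, Flt1, Vwf and Cdh5 reached 0.5 RPKM only in DN. Except for Pecam1, their C-LTMR values lie under the pseudocount of 0.1, so these counts support no direction. The part of endothelial RNA in Cd93 was not tested. Itgb2 stood in the order of the neutrophil sum, and the part of those cells in it was not tested.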

How the data were processed

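RNA of 6 libraries, 2 per subset, was amplified before TruSeq library construction, per the labels' protocols. CASAVA 1.8.2, edgeR 2.6.2 and build GRCm38 (mm10) are named in the submitters' processing notes, while their settings, the annotation and the strand rule were not found in the sources used here. The authors deposited RPKM values of 23029 genes and a second table of 6620 genes of TMM-normalized counts, a signal brought to a common library size whose values are not whole. Depth was estimated from the modal step of low RPKM values over 4476 genes with a single GENCODE M21 transcript.

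Genes reaching 0.5 RPKM in at least 2 libraries (13478) were taken as log2(RPKM + 0.1) into 1 limma 3.58.1 fit (R 4.3.3, trend, 3 residual degrees of freedom, median prior 3.65), tested on simulated data. All 6 libraries were used. Calls followed the thresholds given above. Alternatives were other pseudocounts (0.01 and 1), no filter, median-ratio and quantile scaling, rescaling to 12 sensory neuron genes, the TMM table, pairs of subsets alone, a replicate block and leaving out each library.

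The members and lists were chosen with earlier results of these data known. Named were the 7 members, the 20 list genes with the largest difference among the 21 called (1 of them is not reported here), near copies or neighbours of members, and the 5 genes nearest to Serping1; Cr1l, Susd4, Ypel4 and Ube2l6 were added after their values were seen. All 7 members matched a RefSeq gene of the same build by Entrez ID and position. Of 63 listed symbols, 6 were not matched. Sequences were read from RefSeq (GRCm38.p6) and GENCODE with Python 3.11.15 and Biopython 1.88.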

Additional observations from a re-analysis of the deposited data

How the results depend on the processing

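Of 219 alternative values of the members' 15 differences, 25 moved by at least the replicate SD and 194 by less. No called difference changed direction. The count of 194 carries no weight, since many of these values could not move further. Dropping the filter, pairs of subsets alone, a replicate block and leaving out a library of the third subset all keep a difference unchanged. Leaving out a library of a compared subset cannot move it beyond that SD. C3 was called in 2 comparisons only without the filter (6 of 7 and 4 of 7 members, against 2297 and 5006 of 18888 genes). With the TMM-normalized table, which lists fewer genes (9 of the complement list), 843, 1645 and 1562 genes and 4, 5 and 6 list genes were called (DP against C-LTMR, DP against DN, C-LTMR against DN; 2052, 4361 and 4167 genes and 12, 16 and 17 list genes in the RPKM fit). With a pseudocount of 1, DP and C-LTMR differed in 1196 called genes and 6 list genes; the cause was not tested. Leaving out 1 library gave 9 to 13, 16 to 17 and 14 to 17 list genes. Colec11 reversed between DP and DN under quantile normalization (0.023, limma BH-adjusted p = 0.962); the cause was not tested. Of 469 alternative values of other called list genes, 39 lost the call. Same-numbered libraries deviated together with r = 0.377 (DP and C-LTMR), 0.097 (DP and DN) and 0.279 (C-LTMR and DN). With 2 libraries per subset, a positive r and a best match with the own number are the same fact. The main fit did not pair libraries by number, as the labels do not give the source of the duplicates. A replicate block gave 2111, 4385 and 4180 genes and 12, 16 and 17 list genes. Rescaling to sensory neuron genes was chosen after seeing the data. With 2 libraries per subset, a lone library left in a subset was assumed to vary like the others.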

Other observations

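Some complement genes under the filter were seen mainly in DP, where the neutrophil marker sum was also highest; they were chosen after their values were seen and not tested. C5ar1, the receptor of the anaphylatoxin C5a, was at 0.249 and 0.264 RPKM in DP, 0 and 0.0121 in C-LTMR and 0 and 0.0241 in DN. Fcnb, a ficolin of the lectin pathway, was at 0.39 and 0.342, 0 and 0, and 0.0725 and 0.0292 in the same order. C1qa was at 0.351 and 0.771 in DP, 0.027 and 0.0286 in C-LTMR and 0.119 and 0.0573 in DN. For C1qa the DN values were below those of DP, while those of C1qb, its partner chain, were above (0.661 and 0.811 in DP, 2.12 and 1.63 in DN).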
